A study of Mus musculus with 19 samples.

Results

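The genes described here encode calcineurin, its RCAN regulators and the NFAT transcription factors that it acts on: Ppp3ca, Ppp3cb, Ppp3r1, Rcan1, Rcan2, Nfatc1, Nfatc2, Nfatc3 and Nfatc4. They were chosen by name, and all probes that the array files give to these 9 genes were taken, which was 24 of 41174 probes. The files use older names for the RCAN genes, Dscr1 for Rcan1 and Dscr1l1 for Rcan2. Of the 24 probes, 19 were kept, because their red signal was well above background on at least 4 of the 19 arrays; this rule kept 28650 probes in all, of 19208 genes. Every one of the 9 genes had at least 1 kept probe. The 5 probes left out were 1 of Ppp3ca, a pair for Nfatc2 and a pair for Nfatc3, and none of them was well above background in red on more than 1 array.

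RNA came from dissociated mouse hippocampal neurons, 21 days in culture, that were exposed for 6 h to 100 µM AP5 (5 arrays), 100 nM NVP-AAM077 (NVP, 4 arrays), 1 µM Ro25-4891 (Ro25, 5 arrays) or vehicle (5 arrays). AP5 is a competitive antagonist of NMDA receptors, the calcium-permeable glutamate receptors of these synapses, and NVP-AAM077 competes for the same site and favours receptors containing GluN2A. The number in the Ro25 name is not that of the widely used GluN2B antagonist with this prefix, so the identity of that compound is open here. The antagonists were used at different doses, and the labels give neither the mouse strain nor the age or sex of the animals. Each value is the log2 ratio of red, the neuron RNA, over green, a universal mouse reference RNA, so it compares a gene with the same gene in the reference and not with another gene.

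Calcineurin is a calcium- and calmodulin-dependent protein phosphatase made of a catalytic A subunit (encoded by Ppp3ca or Ppp3cb in brain) and a regulatory B subunit (Ppp3r1). In hippocampal neurons it is switched on by calcium that enters through NMDA receptors and through voltage-gated channels, and it is known for its part in long-term depression. It dephosphorylates the NFATc proteins, which then enter the nucleus, whereas RCAN1 and RCAN2 bind calcineurin and can inhibit it. All of these steps act on proteins, and the arrays measured only the RNA of the genes.

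The arrays had a median gene-spot signal of 135.5 to 177.8 in red and 88.67 to 106.8 in green, and no spot of a member gene was saturated. How many arrays a group had limits the precision of its values. Neuron and astrocyte markers were both well above background: of 9 neuron markers 8 were detected on all 19 arrays and Camk2a on 18, and all 7 astrocyte markers on 19. Of 7 microglial markers Itgam was above background on no array and C1qa on 5, and of 4 endothelial markers Cdh5 on none. Averaged over the 7 astrocyte markers, the log2 ratio was 3.71 on AP5 array 5, 3.64 on NVP array 4, 3.46 on Ro25 array 3 and 3.53 on vehicle array 3, against 4.42 or more on the other 15, so each group held 1 array that stood apart. The 9 neuron markers averaged 4.95 to 5.13 on AP5 arrays, 4.86 to 5.06 on NVP arrays, 4.78 to 5.06 on Ro25 arrays and 4.52 to 4.92 on vehicle arrays, and 4 of the 9 passed the test as higher in AP5 against vehicle (median log2 difference 0.26), where 10.6% of all genes did, but with arrays scaled to the same spread 3 passed as lower and none as higher (median -0.10), and in red alone 1 as lower. Among markers of other cells, Slc1a2 (astrocytes, 0.38), Sox10 and Olig2 (oligodendrocyte lineage, 0.56 and 0.27) passed as higher in AP5 and Ctss (microglia) as lower (-0.45), which was 1 of 7, 2 of 6 and 1 of 6 measured; at the same spread none of these passed in that direction, and in red alone none passed and all 6 oligodendrocyte markers were below 0. The part of other cells in the members' values was not tested. In such mixed bulk RNA, fewer cells of a type and less RNA per cell cannot be told apart. The arrays lay on 5 slides, and no slide held both AP5 and vehicle arrays.

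AP5 against vehicle addresses how blocking NMDA receptors changes these RNAs within 6 h, and by its brightest probe 1 of the 9 genes passed the test, Nfatc4, which was lower in AP5. Across all genes by the same rule, 17.6% passed in either direction and 7.04% passed as lower, so 1 of 9 is a share near the background. Neither RCAN gene nor any calcineurin subunit passed by its brightest probe. Of the 19 probes, 1 passed as lower and 2 as higher, against 6.76% and 10.2% of the 28648 probes tested. The median log2 difference of the 19 probes was 0.01, beside 0.01 over all probes. Tests were limma's moderated fits on the log2 ratios of all 19 arrays, with p adjusted by the Benjamini-Hochberg method over all probes. Nothing in the labels says that replicates were separate cultures, so the p-values reflect the spread among these samples and that spread may be technical.

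**Figure D1:**
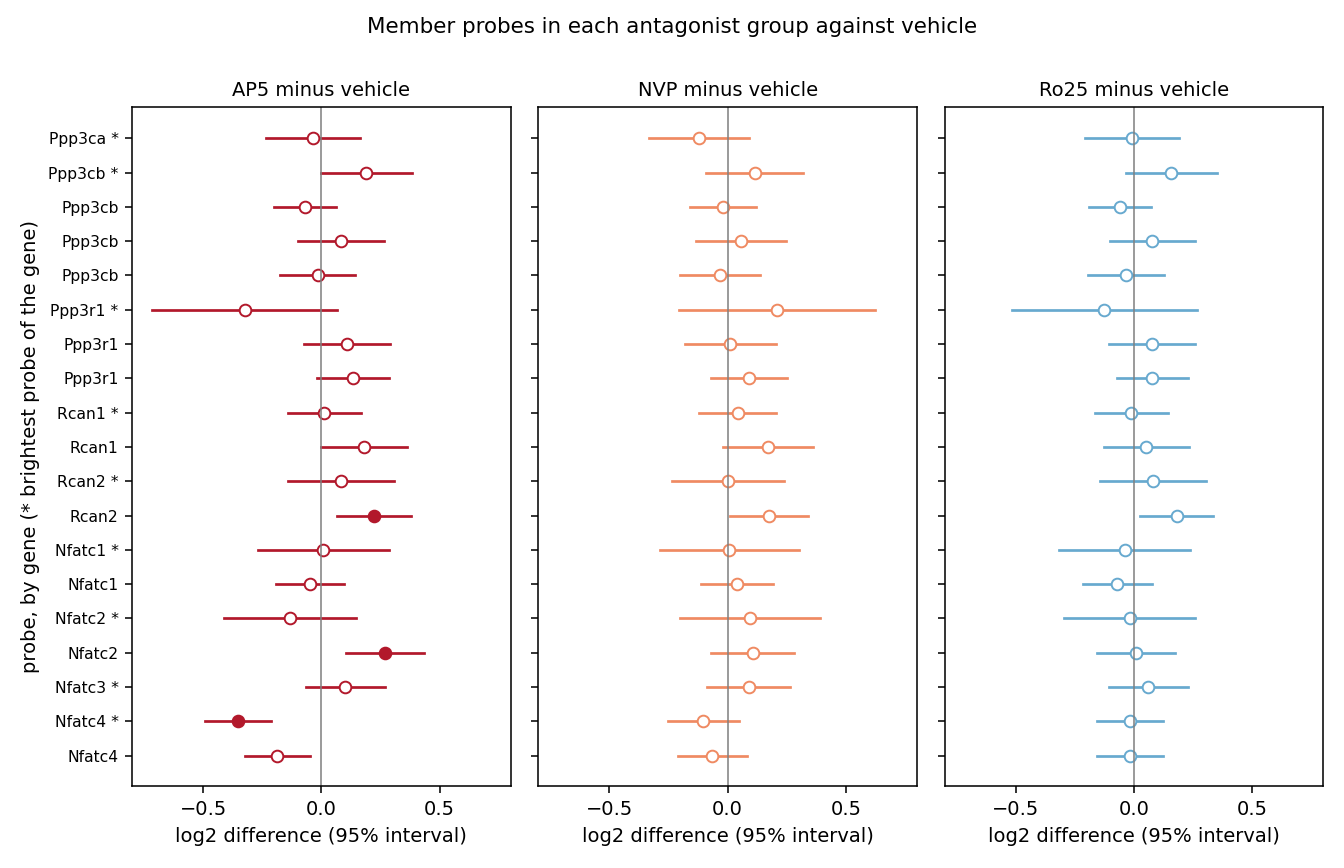
Log2 difference from vehicle (x axis) of each of the 19 probes (rows, by gene) in AP5, NVP and Ro25 arrays, with 95% intervals; filled points passed the adjusted test, and stars mark each gene's brightest probe. Filled points occur in the AP5 panel alone, for 1 probe each of Rcan2, Nfatc2 and Nfatc4 (the Nfatc4 difference shrank to -0.15 and no longer passed when all arrays were scaled to the same spread).

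Nfatc4 encodes the NFAT family member also called NFAT3. Its brighter probe (A_52_P342159; mm8 chr14:54787776-54787835, plus strand, from a RefSeq transcript) gave log2 ratios of -2.23, -2.21, -2.19, -2.45 and -2.13 on the 5 AP5 arrays. It gave -2.09, -1.99, -2.06 and -1.83 on the NVP arrays and -1.99, -2.01, -1.95, -1.73 and -1.84 on the Ro25 arrays. The vehicle arrays gave -1.89, -1.86, -1.93, -1.90 and -1.87. Every AP5 array lay below every array of the other 3 groups, and the vehicle arrays lay closest together (SD 0.03, against 0.12 in each other group). The group means ran, from high to low, vehicle, Ro25, NVP and AP5; vehicle and Ro25 differed by less than their spread, and so did Ro25 and NVP.

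Nfatc4 averaged -2.24 ± 0.12 in AP5 and -1.89 ± 0.03 in vehicle (SD, n = 5 each), a log2 difference of -0.35 (SE 0.07, 95% interval -0.49 to -0.21) and a ratio of 0.784, with an adjusted p of 0.00138 in limma. Its AP5 values were all below its vehicle values, and groups without overlap occurred for 11.4% of all probes. Leaving out any 1 array gave differences of -0.38 to -0.30 with adjusted p of 9.34e-04 to 0.0044. Without the 4 arrays low in astrocyte markers it was -0.39 (adjusted p = 0.00201), and the red channel alone gave -0.34. The difference shrank to -0.15 both when arrays were centred on their median instead of fitted by loess (adjusted p = 0.344) and when all arrays were scaled to the same spread (adjusted p = 0.26), and with the background model fitted to all spots, marked ones included, it was -0.29 (adjusted p = 0.342). The spread of all log2 ratios (the median of their absolute values) was 0.68 to 0.727 on AP5 arrays and 0.579 to 0.669 on vehicle arrays, so the groups did not overlap, and probes with a ratio like that of Nfatc4 (within 0.25) had a median difference of -0.11. With slide as a fixed block it was -0.18 (SE 0.20, adjusted p = 0.777), in a fit that called 0.0384% of all probes.

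The dimmer Nfatc4 probe (A_52_P622614; mm8 chr14:54781383-54781442, plus strand, from a cDNA clone) gave -0.46, -0.37, -0.44, -0.50 and -0.50 on AP5 arrays, against -0.14, -0.22, -0.48, -0.32 and -0.17 on vehicle arrays. It gave -0.44, -0.31, -0.19 and -0.39 on NVP arrays and -0.32, -0.35, -0.36, -0.25 and -0.14 on Ro25 arrays. The AP5 arrays were lower than 4 of the 5 vehicle arrays, and vehicle array 3, one of those low in astrocyte markers, overlapped them. The difference was -0.19 (SE 0.07, 95% interval -0.33 to -0.05) and did not pass (limma, adjusted p = 0.0588); without vehicle array 3 it was -0.24 (adjusted p = 0.0134). Both probes put the 4 groups in the same order. In the reference channel, which should not depend on treatment, the brighter probe differed by -0.04 between AP5 and vehicle arrays (adjusted p = 0.256), none of the 19 member probes passed there, and 8.07% of all probes did. Reference-channel differences of the 19 probes ran from -0.30 to 0.13.

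**Figure D2:**
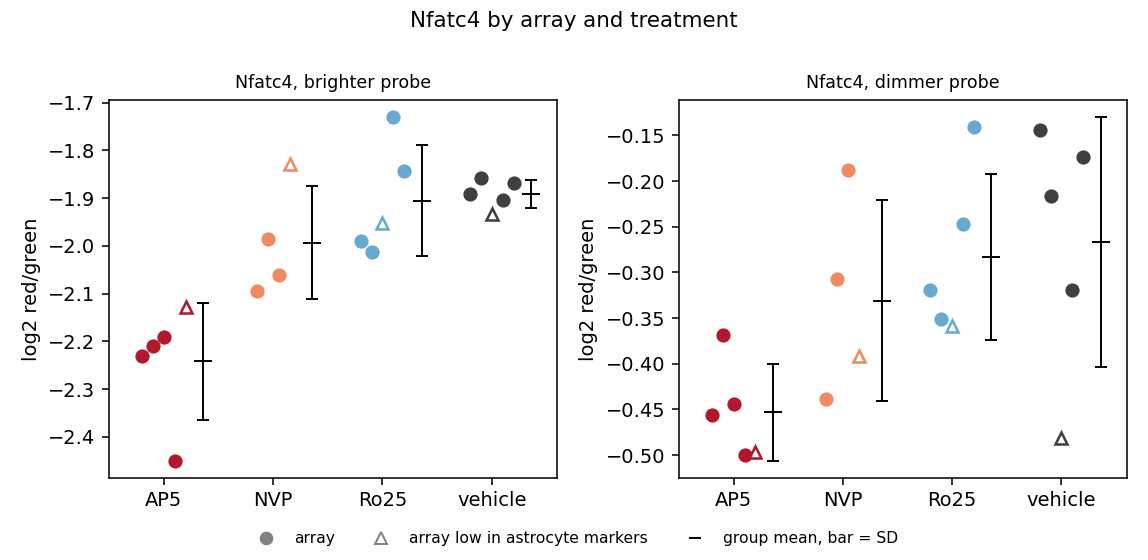
Log2 red/green ratio (y axis) of the brighter (left) and dimmer (right) Nfatc4 probe on each array, by treatment; bars are the group mean and SD, and open triangles are the 4 arrays low in astrocyte markers. For the brighter probe the 5 AP5 arrays sit between -2.45 and -2.13 and the 5 vehicle arrays between -1.93 and -1.86, a difference that did not pass when arrays were scaled to the same spread; for the dimmer probe 1 vehicle array falls among the AP5 arrays.

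The sequence before the annotated Nfatc4 start (RefSeq, GRCm38.p6, chr14:55824545-55824794, plus strand) is shown since Nfatc4 was the member that passed the test. Capitals mark the NFAT core letters GGAAA on either strand, of which there are 3, and 55.6% of 32851 RefSeq promoter windows hold at least 1. A match of these letters is a description and not a binding site.
Nfatc4: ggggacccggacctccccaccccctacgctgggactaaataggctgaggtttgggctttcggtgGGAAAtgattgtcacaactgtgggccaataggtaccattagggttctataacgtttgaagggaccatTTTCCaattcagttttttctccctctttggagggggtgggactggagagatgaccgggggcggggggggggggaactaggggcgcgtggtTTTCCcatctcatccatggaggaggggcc

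Nfatc2, also called NFAT1, was measured by a pair of kept probes that moved in different ways in AP5. The dimmer (A_51_P195849; mm8 chr2:168171046-168171105, minus strand), from transcript variant 1, gave 0.70, 0.69, 0.70, 0.54 and 0.75 on AP5 arrays, against 0.31, 0.48, 0.61, 0.35 and 0.28 on vehicle arrays. Only AP5 array 4 fell inside the vehicle range. The difference was 0.27 (SE 0.08, 95% interval 0.10 to 0.43), and it passed in limma (adjusted p = 0.0248), but in the red channel alone it was -0.04, and with arrays scaled to the same spread it was 0.22 (adjusted p = 0.0641). The reference channel of this probe was lower on AP5 arrays by -0.18 (SE 0.10, adjusted p = 0.258 in limma). Much of the difference in ratio thus lay in the reference and not in the neuron RNA. Like the ratio in the main fit, the call of this probe depended on single arrays. The main-fit call was lost when AP5 array 1 or 5 or vehicle array 1, 4 or 5 was left out (differences of 0.24 to 0.26, adjusted p up to 0.0715).

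The brighter Nfatc2 probe (A_52_P628171; mm8 chr2:168227462-168227521, minus strand), from transcript variant 2, gave 1.46, 2.15, 2.07, 2.03 and 1.41 on AP5 arrays, against 1.94, 1.92, 1.91, 2.19 and 1.81 on vehicle arrays. AP5 arrays 1 and 5 lay apart from the other 3 AP5 arrays, which were as high as vehicle. The difference was -0.13 (95% interval -0.41 to 0.15, adjusted p = 0.539). The pair of probes thus gave Nfatc2 no single direction. On NVP arrays the brighter probe averaged 2.05 ± 0.13 (SD, n = 4) and the dimmer 0.51 ± 0.19, and on Ro25 arrays 1.94 ± 0.19 and 0.42 ± 0.09 (SD, n = 5).

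Nfatc1 and Nfatc3 showed no difference that passed. Nfatc3 (A_51_P147085; mm8 chr8:109017395-109017454, plus strand) had log2 ratios of -1.67, -1.52, -1.60, -1.61 and -1.69 on AP5 arrays, against -1.62, -1.83, -1.86, -1.77 and -1.53 on vehicle arrays. The groups overlapped, and the difference was 0.10 (95% interval -0.07 to 0.27, adjusted p = 0.415 in limma); scaled to the same spread, it was 0.26 and passed (adjusted p = 0.00921). The brighter Nfatc1 probe (A_51_P517870) gave -0.79, -0.61, -0.56, -0.66 and -0.80 on AP5 arrays, against -0.60, -0.74, -1.07, -0.56 and -0.50 on vehicle arrays, a difference of 0.01 (95% interval -0.27 to 0.29). The lowest vehicle value was again that of array 3. The other Nfatc1 probe (A_51_P220135) was above background on 3 of 5 AP5, 4 of 4 NVP, 3 of 5 Ro25 and 3 of 5 vehicle arrays, so its difference of -0.05 rests partly on background signal.

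Rcan1 encodes the regulator of calcineurin that is itself a known target of NFAT, through a start site inside the gene. Its brighter probe (A_52_P617327; mm8 chr16:92281377-92281436, minus strand) gave 0.91, 1.18, 1.17, 1.02 and 0.76 on AP5 arrays. The vehicle arrays gave 1.09, 1.03, 0.87, 1.05 and 0.96. The AP5 arrays spread on both sides of the vehicle arrays, and the difference was 0.01 (SE 0.07, 95% interval -0.14 to 0.17, adjusted p = 0.939 in limma).

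The dimmer Rcan1 probe (A_51_P182116) gave 0.64, 0.93, 0.85, 0.88 and 0.60 on AP5 arrays, against 0.73, 0.54, 0.46, 0.81 and 0.46 on vehicle arrays. The ranges overlapped, and the difference was 0.18 (95% interval -0.001 to 0.36, adjusted p = 0.165). Against vehicle, the brighter probe differed by 0.04 in NVP (95% interval -0.12 to 0.21) and by -0.01 in Ro25 (-0.16 to 0.14). Neither difference passed. The intervals give the precision of each difference and not the smallest change that the adjusted test could detect.

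RefSeq gives Rcan1 an upstream start and a downstream one, and the windows before both (GRCm38.p6, minus strand) are shown because the downstream one is the start known to respond to calcineurin and NFAT. The upstream window is chr16:92466170-92466419 and the downstream window chr16:92400079-92400328. Capitals mark GGAAA on either strand, which occurs 0 times in the upstream window and 3 times in the downstream one. The downstream window also holds 1 cyclic AMP response element (TGACGTCA), found in 1.55% of all windows, and 1 AP-1 motif (TGANTCA), found in 6.75%. Both Rcan1 probes list the same transcripts, so they do not separate RNA of the 2 starts.
Rcan1 upstream: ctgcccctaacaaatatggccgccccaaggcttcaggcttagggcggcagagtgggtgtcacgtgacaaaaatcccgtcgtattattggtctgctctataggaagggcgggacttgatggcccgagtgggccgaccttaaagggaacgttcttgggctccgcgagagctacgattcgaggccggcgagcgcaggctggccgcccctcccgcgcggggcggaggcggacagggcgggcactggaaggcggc
Rcan1 downstream: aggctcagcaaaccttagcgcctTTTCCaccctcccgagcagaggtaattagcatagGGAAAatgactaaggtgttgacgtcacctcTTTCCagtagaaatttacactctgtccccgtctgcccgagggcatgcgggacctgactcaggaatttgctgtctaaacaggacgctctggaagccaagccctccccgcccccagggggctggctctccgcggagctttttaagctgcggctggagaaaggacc

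Rcan2 encodes a relative of RCAN1 that also binds calcineurin. Its brighter probe (A_52_P414464; mm8 chr17:43502209-43502268, plus strand) gave 3.40, 2.93, 3.07, 3.09 and 3.37 on AP5 arrays, against 2.79, 3.27, 3.32, 3.06 and 2.99 on vehicle arrays. The groups overlapped, with a difference of 0.08 (95% interval -0.14 to 0.31, adjusted p = 0.644 in limma). The dimmer probe (A_52_P369415; mm8 chr17:43484107-43484166, plus strand) gave 1.12, 0.84, 0.83, 0.87 and 0.96 on AP5 arrays, against 0.66, 0.95, 0.67, 0.72 and 0.50 on vehicle arrays. The other 4 vehicle arrays lay below all 5 AP5 arrays, and vehicle array 2 lay among them. The difference was 0.22 (95% interval 0.07 to 0.38, adjusted p = 0.0445). That call was lost in 12 of 19 leave-one-out fits, those without AP5 array 1, 4 or 5, NVP array 1, 2 or 4, Ro25 array 4 or 5, or vehicle array 1, 3, 4 or 5, with differences of 0.17 to 0.24 and adjusted p up to 0.133. The difference was -0.10 once slide entered the fit as a fixed block, and 0.15 (adjusted p = 0.164) with arrays scaled to the same spread.

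**Figure D3:**
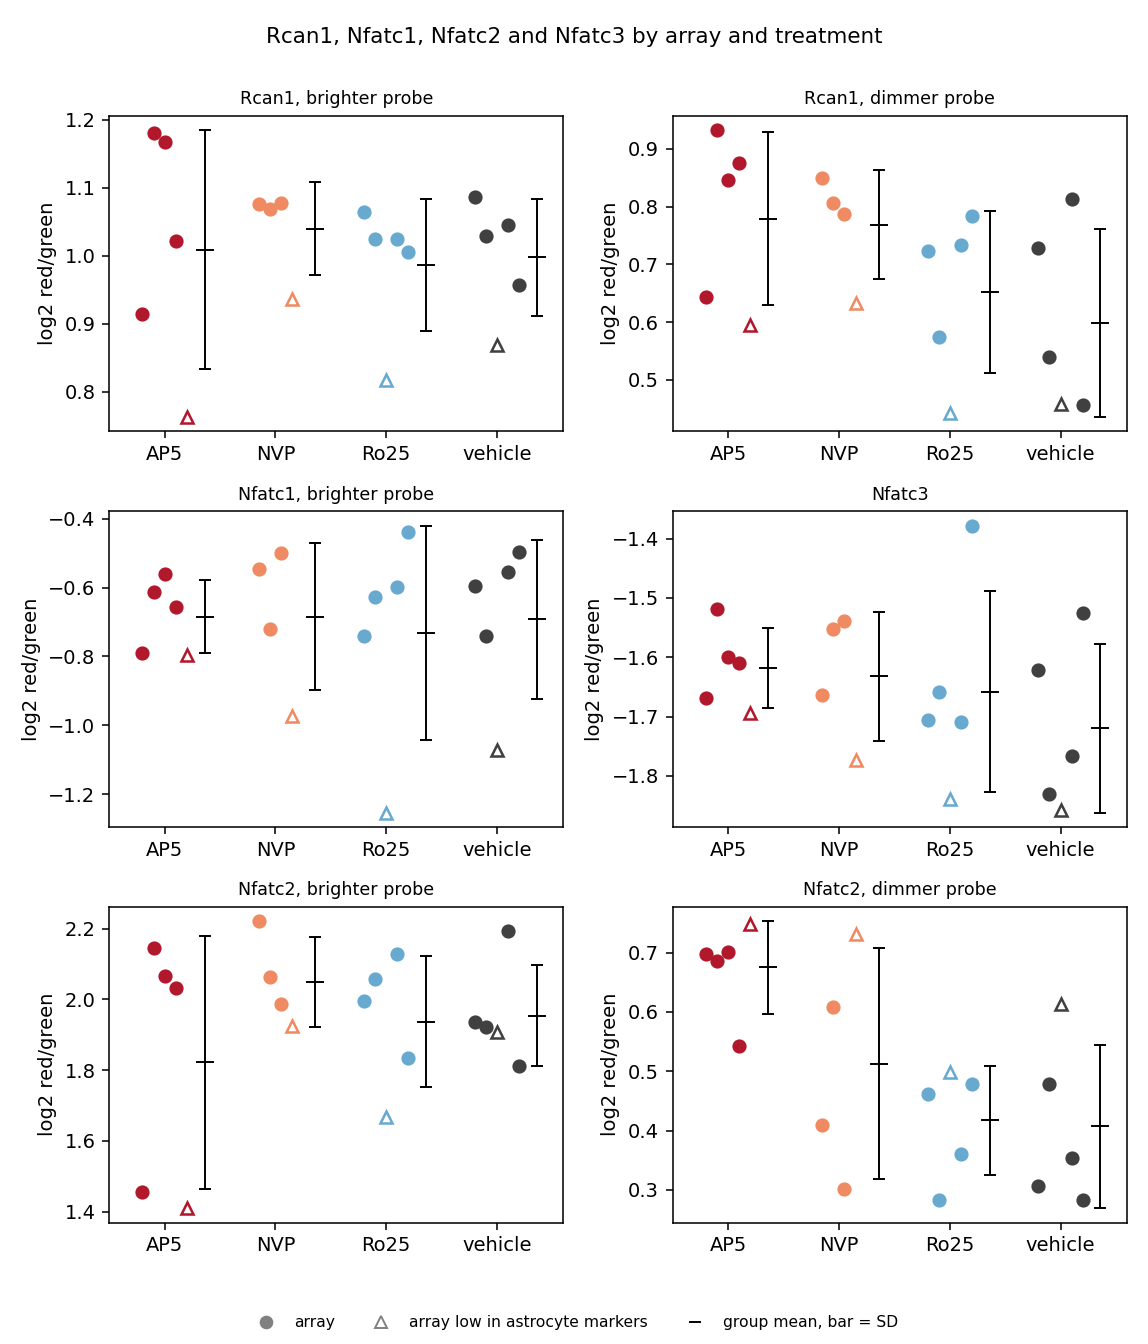
Log2 red/green ratio (y axis, own scale in each panel) of the probes of Rcan1, Nfatc1, Nfatc2 and Nfatc3 on each array, by treatment; bars are the group mean and SD, and open triangles are the 4 arrays low in astrocyte markers. The triangles are the lowest array of all 4 groups in the panels for the brighter Rcan1 probe, Nfatc1 and Nfatc3, and the highest of all 4 in the panel for the dimmer Nfatc2 probe.

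The catalytic subunit gene Ppp3ca (A_51_P213532; mm8 chr3:136872888-136872948, plus strand) gave 3.03, 2.51, 2.81, 2.78 and 2.79 on AP5 arrays, against 2.62, 2.75, 2.81, 2.97 and 2.95 on vehicle arrays. The groups overlapped fully, and the difference was -0.03 (95% interval -0.23 to 0.16, adjusted p = 0.849 in limma). Ppp3cb, the other catalytic subunit gene, had 4 kept probes. The brightest (A_52_P306396; mm8 chr14:19288595-19288654, minus strand) gave 3.23, 2.99, 3.04, 3.06 and 3.37 on AP5 arrays, against 2.79, 3.16, 3.00, 2.93 and 2.87 on vehicle arrays. Its AP5 arrays were mostly the higher ones but overlapped vehicle, and the difference of 0.19 (95% interval -0.003 to 0.38) did not pass (adjusted p = 0.17). It passed in 2 alternatives, at 0.46 with median centring (adjusted p = 0.00878), which moved the median of all probes to 0.17, and at 0.24 with the astrocyte marker mean as a covariate (adjusted p = 0.0141). The other 3 Ppp3cb probes differed by -0.07, 0.08 and -0.02.

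The regulatory subunit gene Ppp3r1 had 3 kept probes, and the brightest was the most variable of all member probes. This probe (A_52_P474379; mm8 chr11:17100321-17100380, plus strand) gave 2.83, 2.51, 2.67, 2.61 and 3.06 on AP5 arrays and 3.19, 3.58, 3.17 and 3.14 on NVP arrays. It gave 3.44, 2.61, 2.81, 3.46 and 2.36 on Ro25 arrays and 2.87, 2.68, 3.28, 3.29 and 3.18 on vehicle arrays. The AP5 arrays lay below all NVP arrays but overlapped vehicle, and the Ro25 arrays spread over the whole range. The difference between AP5 and vehicle was -0.33 (SE 0.19, 95% interval -0.72 to 0.07, adjusted p = 0.253 in limma), and with arrays scaled to the same spread it was -0.61 and passed (adjusted p = 0.0325). That between AP5 and NVP was -0.53 (95% interval -0.95 to -0.12, adjusted p = 0.171). In the reference channel the brightest Ppp3r1 probe differed by -0.30 between AP5 and vehicle arrays (SE 0.15, adjusted p = 0.194 in limma). The other Ppp3r1 probes differed by 0.11 and 0.13 in the ratio between AP5 and vehicle, so the sign depended on the probe.

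**Figure D4:**
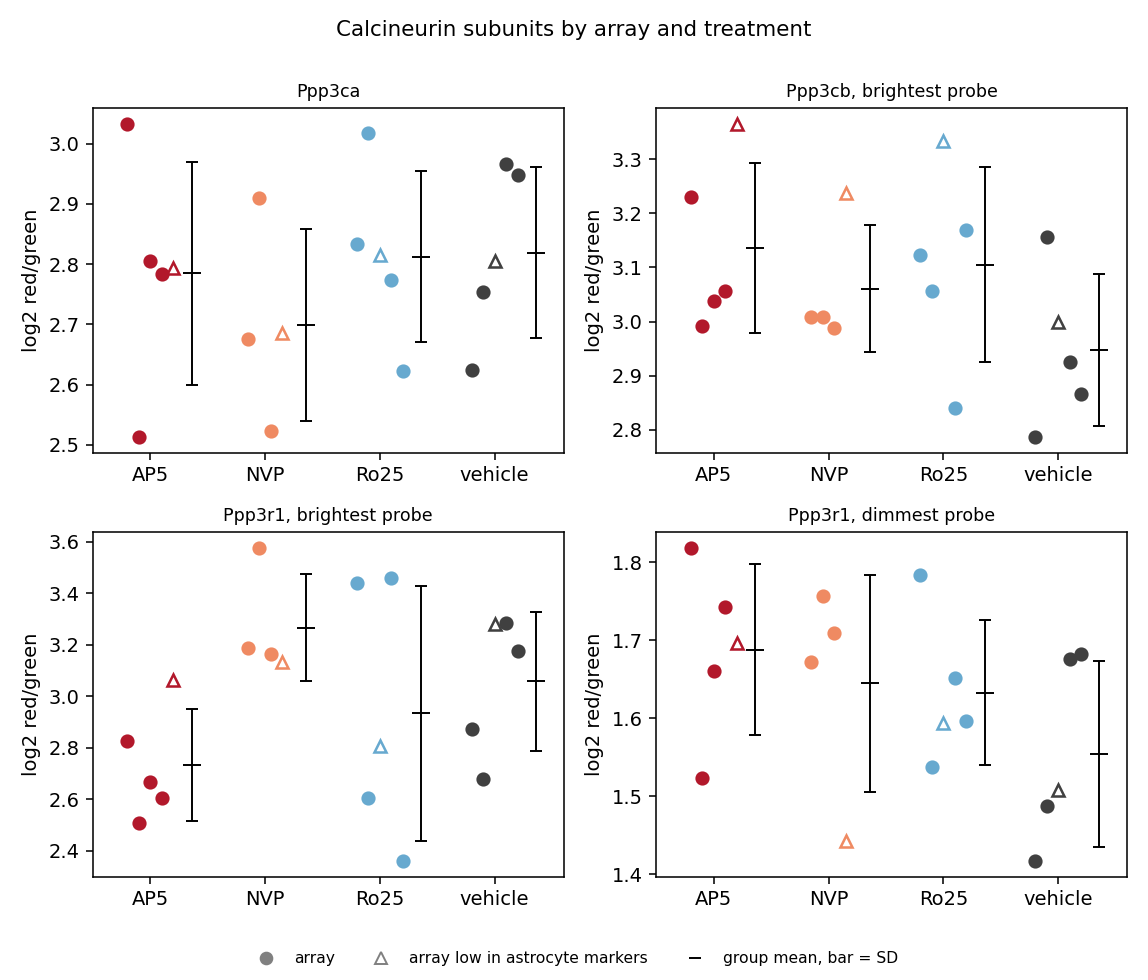
Log2 red/green ratio (y axis, own scale in each panel) of probes of the calcineurin subunit genes Ppp3ca, Ppp3cb and Ppp3r1 on each array, by treatment; bars are the group mean and SD, and open triangles are the 4 arrays low in astrocyte markers. AP5 and vehicle arrays overlap in all 4 panels, and the Ro25 arrays of the brightest Ppp3r1 probe run between 2.36 and 3.46.

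NVP and Ro25 against vehicle ask how the other antagonists, at their own doses, changed these RNAs. No member probe passed in NVP or in Ro25, where the tests called 0% of all probes with limma. At an unadjusted p under 0.05, 1 of the 19 member probes stood in each comparison, against 8.14% of all probes for NVP and 5.69% for Ro25. In both it was the dimmer Rcan2 probe, with differences of 0.17 in NVP (95% interval 0.01 to 0.34, adjusted p = 0.577) and 0.18 in Ro25 (95% interval 0.03 to 0.34, adjusted p = 0.795). These comparisons share their vehicle arrays with AP5 against vehicle.

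For Nfatc4 the brighter probe differed from vehicle by -0.10 in NVP (95% interval -0.25 to 0.05, adjusted p = 0.807 in limma). It differed by -0.01 in Ro25 (95% interval -0.15 to 0.13). The 19 intervals reached 0.18 to either side at the median in NVP and 0.17 in Ro25. These widths are not the limit of the adjusted test, which larger differences also failed. Among the reported NFAT targets described below, Nr4a1 differed by -0.41 in Ro25 (adjusted p = 0.343 in limma). Bdnf differed by -0.37 in NVP (adjusted p = 0.481 in limma). Differences of the 19 probes ran between -0.12 and 0.21 in NVP and between -0.13 and 0.18 in Ro25.

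Between antagonists, the doses differed, so the values stand side by side and not as matched doses. AP5 against Ro25 gave 1 of 9 genes, Nfatc4, with a difference of -0.34 (SE 0.07, 95% interval -0.48 to -0.20, adjusted p = 0.00384 in limma), where 5.9% of all genes passed. AP5 against NVP gave none of the 9, where 4.06% of genes passed, and Nfatc4 differed by -0.25 (95% interval -0.40 to -0.10, adjusted p = 0.0576). Without AP5 array 5 the last value was -0.28 (adjusted p = 0.0456), and without Ro25 array 4, which enters only the shared spread, its adjusted p was 0.0425. Arrays did not overlap for 2 of the 19 member probes between AP5 and NVP (the brighter Nfatc4 probe and the brightest Ppp3r1 probe), against 7.64% of all probes, and for 3 of 19 between AP5 and Ro25 (both Nfatc4 probes and the dimmer Nfatc2 probe), against 6.5%. On slide 2, the only one that held AP5 and NVP arrays (1 and 2), the Nfatc4 difference was -0.05. The AP5 array on that slide was array 5, which was low in astrocyte markers and had the highest Nfatc4 value of the AP5 arrays (-2.13). NVP arrays 1 and 3, on slide 2, had the lowest NVP values (-2.09 and -2.06). NVP arrays 2 and 4, on slide 3, gave -1.99 and -1.83. All other AP5 arrays were on slide 1, so slide and the traits of array 5 cannot be told apart. With slide as a fixed block, the difference between AP5 and Ro25 was -0.10 (adjusted p = 0.797), and with arrays scaled to the same spread it was -0.21 (adjusted p = 0.162). NVP against Ro25 called 0% of probes, 1.69% had an unadjusted p under 0.05, and for Nfatc4 the difference was -0.09 (95% interval -0.24 to 0.06).

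The arrays low in astrocyte markers set much of the spread within groups for some members. The brighter Rcan1 probe was lowest of its group on AP5 array 5, NVP array 4, Ro25 array 3 and vehicle array 3. These arrays lay -0.31, -0.14, -0.21 and -0.16 from the mean of the other arrays of their group. For the brighter Nfatc1 probe the same arrays lay -0.14, -0.38, -0.65 and -0.47 from the mean of the other arrays of their group. The dimmer Nfatc1 probe and Nfatc3 were also lowest on all 4, making 4 of 19 member probes, against 8.02% of 27334 probes with a value on every array. One Ppp3cb probe (A_51_P412191) and the dimmer Nfatc2 probe were highest on all 4, which was 2 of 19 against 6.69%. Nfatc4 followed neither pattern. Its brighter probe lay 0.14 and 0.22 above the mean of the other arrays of the group on the AP5 and NVP arrays. On the Ro25 and vehicle arrays it lay -0.06 and -0.05 from that mean. Whether cell composition moved these values was not tested.

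By the correlation of log2 ratios over the 19 arrays, the genes most like Rcan1 among 18294 were Slc20a2 (r = 0.942), a phosphate transporter gene, Arpin (0.938), Crat (0.914), Atp6v0e (0.913) and Slc27a1 (0.909). Without the 4 arrays low in astrocyte markers, these correlations were 0.83, 0.815, 0.75, 0.756 and 0.752 over 15 arrays. Among those closest to Nfatc4 were Rhobtb2 (0.857), Abcb1b (0.855), Trdmt1 (0.854) and Oxsr1 (0.85). Within groups, after each group's mean was removed, those of Rcan1 were 0.914 to 0.949 and those of Nfatc4 0.41 to 0.602. The values of one array share a library and a slide, and the correlations are given as a description.

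Around the members, 5 of 11 measured genes reported as NFAT targets in various cells fell in AP5 and none rose, where 7.04% of all genes passed as lower and 10.6% as higher. This list and those below were chosen with earlier results of these data known. Their counts are therefore a description and cannot serve as a test against those shares. Their median log2 difference was -0.33, beside 0.01 over all probes. Bdnf, the neurotrophin gene, averaged 0.67 ± 0.28 in AP5 and 2.46 ± 0.23 in vehicle (SD, n = 5 each), a difference of -1.79 (limma, adjusted p = 5.28e-08). Ptgs2, which encodes the inducible cyclooxygenase, differed by -1.49 (adjusted p = 3.57e-06), and the immediate early gene Nr4a1 by -1.45 (adjusted p = 4.23e-09). Egr3 and Tnf were the others, at -0.69 and -0.29, but the dimmer Egr3 probe differed by only -0.09. With arrays scaled to the same spread, Bdnf, Ptgs2, Nr4a1 and Egr3 still passed (-1.94, -1.30, -1.28 and -0.89) and Tnf did not (-0.17). With slide as a fixed block, in a fit that called 0.0384% of all probes, none passed, Bdnf at -1.14 (adjusted p = 0.411). Several of these genes are also induced by other calcium-dependent factors. None of the 11 passed in NVP, where their differences ran from -0.37 to 0.03, or in Ro25, where they ran from -0.63 to 0.06.

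Of 12 measured calcineurin substrate genes, 4 rose and 1 fell in AP5, beside 10.6% and 7.04% of all genes. Mef2d (0.38, adjusted p = 0.00314 in limma) and Ppp1r1a (0.38), which encodes an inhibitor of protein phosphatase 1, rose, as did Ppp1r1b, but with arrays scaled to the same spread none of the 4 passed and Ppp1r1a turned negative (-0.01), as it and Ppp1r1b did in red alone. Probes with a ratio like theirs had median differences of 0.26 for Ppp1r1a, 0.11 for Mef2d and 0.06 for Ppp1r1b. Mef2a was the one that fell (-0.29, adjusted p = 0.0244), and scaled to the same spread it passed at -0.40. It did not pass with median centring (-0.04, adjusted p = 0.825 in limma) or Agilent's own log ratio (-0.19, adjusted p = 0.253). Nor did it pass in red alone, in the authors' table, with the background model fitted to all spots or with a replicate block (-0.315 to -0.248). It passed with a random slide block, with the astrocyte marker mean as a covariate and without the 4 arrays low in astrocyte markers. For Mef2d, probes of the gene ran from -0.13 to 0.38 and for Mef2a from -0.29 to 0.15. Of 8 anchors and inhibitors, the scaffold genes Homer2 (0.34) and Homer3 (0.24) rose and Fkbp8 (-0.24) fell, 3 of 8 beside 17.6% of all genes in either direction. At the same spread none of these 3 passed; Homer3 was 0.18 and Fkbp8 -0.19, close to their values above, but Homer2 was -0.03, and in red alone -0.10.

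Of 13 genes for NFAT kinases and nuclear transport, Mapk10, which encodes a JNK kinase, rose (0.42, adjusted p = 6.68e-04 in limma) and 12 did not pass. At the same spread Mapk10 was 0.09 (adjusted p = 0.52), and its dimmer probe differed by only 0.08 in the main fit. Probes with a ratio like that of Mapk10 had a median difference of 0.24, and those with a ratio like that of Homer2 0.25. With slide as a fixed block no gene of these lists passed, and Mapk10, Homer2, Homer3, Ppp1r1a, Ppp1r1b, Mef2a and Tnf were among those that changed sign. That fit called 0.0384% of all probes, since no slide held both AP5 and vehicle arrays. For Nfatc4 its SE was 0.20, against 0.07 in the main fit. In that fit Mapk10 was -0.01, Homer2 -0.03, Ppp1r1a -0.06 and Mef2a 0.12. Mef2d and Fkbp8 kept their signs (0.37 and -0.18). Effects of slide and of AP5 cannot be told apart in this design. None of the other relatives, Ppp3cc, Ppp3r2, Rcan3 and Nfat5, passed. No gene of the substrate, anchor, kinase and relative lists passed in NVP or Ro25.

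**Figure D5:**
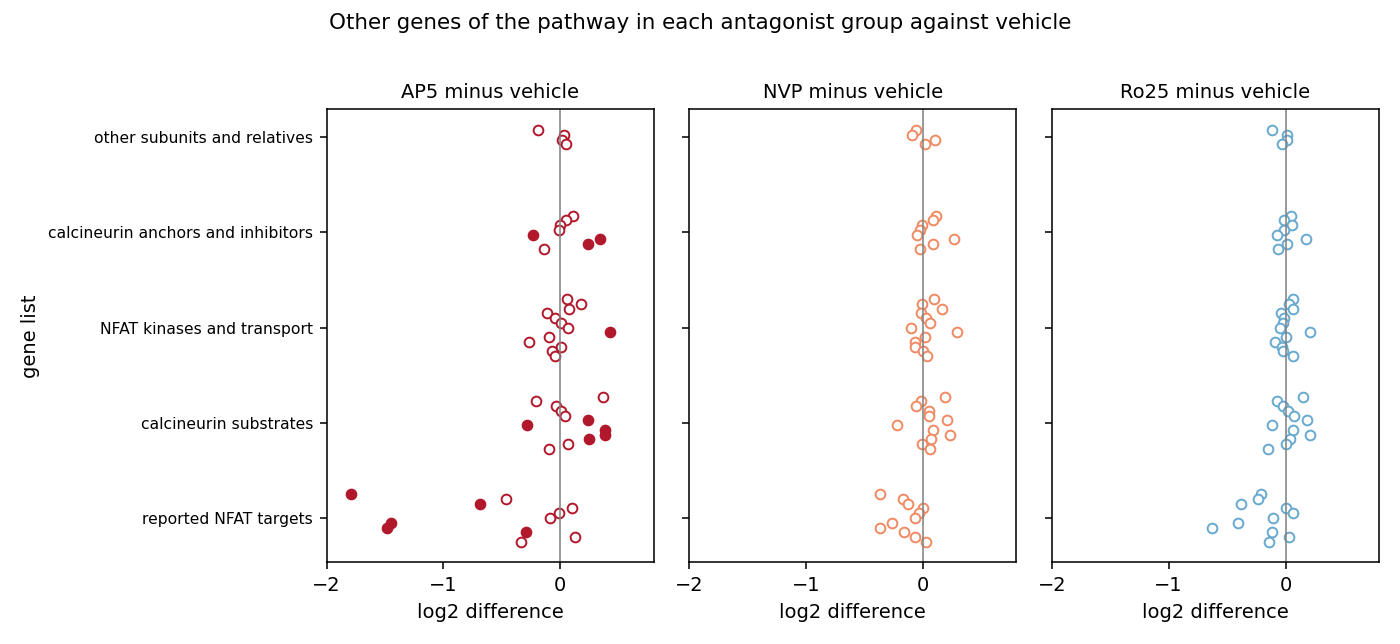
Log2 difference from vehicle (x axis) of the genes in 5 pathway lists (rows), 1 point per gene by its brightest probe, in AP5, NVP and Ro25 arrays; filled points passed the adjusted test. In the AP5 panel the filled points of the reported NFAT targets lie between -1.79 and -0.29, and the NVP and Ro25 panels hold no filled point; none of the filled points above 0 still passed when arrays were scaled to the same spread.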

How the data were processed

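Two-colour Agilent arrays measured RNA of cultured mouse hippocampal neurons (red) beside a universal reference (green) on 19 arrays in 4 groups. Per the file headers, spot intensity in both channels came from Feature Extraction 9.5.3.1 (protocol GE2-v5_95_Feb07). The submitters' processing notes instead list version 11.0 of that software. The deposited log10 ratio had been background-subtracted and normalized by linear and lowess methods, per the file headers. The authors' deposited table holds log2 values for 20674 probes, but neither centring nor filtering is described; its columns correlated with the ratios made here at 0.9993 to 0.9998.

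Spots marked as non-uniform or as outliers were removed (117 to 266 per array, 1642 on vehicle array 5), the background was corrected by normexp with an offset of 50, and log2 ratios were normalized by loess within arrays, with controls at weight 0. Spots of 1 probe were averaged. Probes were kept with red well above background on at least 4 arrays. A gene stands for its kept probe of highest mean brightness, and its other probes are given beside it. limma 3.58.1 in R 4.3.3 fitted group means over all 19 arrays; tests were two-sided, adjusted by Benjamini-Hochberg over all probes at 0.05. On simulated data for AP5 against vehicle (27334 probes) the fit recovered 46 of 100 log2 changes of 0.3 and 87 of 100 of 0.6. Far more probes passed in the data (4869 of 28648) than were changed in the simulation. The adjusted cut-off therefore differs, and these shares do not give the power of the test on the data. Replicate numbers did not pair the samples. The 4 arrays low in astrocyte markers, 1 in each group, correlated with each other at 0.61 to 0.815. The labels do not say whether they shared a culture, this was not tested, and the main fit does not model it. With the astrocyte marker mean as a covariate, 7863 probes passed for AP5 against vehicle, against 4869 in the main fit.

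The members, gene lists, tests and alternatives were chosen with earlier results of these data known. All member probes are described; up to 3 called genes with the largest change were named per list, and genes beyond these (Egr3, Tnf, Ppp1r1b and the unchanged relatives) were named after their values were seen. RefSeq promoter windows were matched for 7 genes and not for Ppp3ca. Position and sequence of Nfatc1 and some listed genes are not reported here.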

Additional observations from a re-analysis of the deposited data

Results flagged for a closer look

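In 4 of 76 sets of arrays (19 probes in 4 groups), 1 array lay far from the others of its group; by chance about 1 in 20 sets would. The brighter Rcan1 probe was low on NVP array 4 (0.936, the next lowest being 1.069) and on Ro25 array 3 (0.818, next 1.005), both arrays low in astrocyte markers. The brightest Ppp3cb probe was high on NVP array 4 (3.238, next 3.009). The brightest Ppp3r1 probe was high on NVP array 2 (3.576, next 3.188), an array that did not stand apart in astrocyte markers.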

How the results depend on the processing

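Counts are members passing of the 9 genes under 34 alternatives. AP5 against vehicle (1 gene) gave 0 with slide as a fixed block or normexp fitted to all spots, 2 with the astrocyte marker mean as a covariate (Nfatc4 and Ppp3cb) and 2 with log ratios at 1 spread (Ppp3r1, lower, and Nfatc3, higher, without Nfatc4); with median centring the 1 was Ppp3cb and not Nfatc4. AP5 against NVP (0) gave 1, Nfatc4, with red above background on all 19 arrays, slide as a random block or the astrocyte covariate. AP5 against Ro25 (1) gave 0 with normexp fitted to all spots, median centring, log ratios at 1 spread or slide as a fixed block. Leaving out 1 array each gave 1 throughout for AP5 against vehicle and against Ro25, 0 to 1 for AP5 against NVP, and 0 throughout for the other 3 comparisons.

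For AP5 against vehicle, signs of called probes turned with slide as a fixed block for the dimmer Rcan2 probe (-0.095) and in red alone for the dimmer Nfatc2 probe (-0.038). Nfatc4 was lower in AP5 under all 34 alternatives (-0.408 to -0.149) and did not pass in 4 of them: normexp on all spots (-0.287, adjusted p = 0.342 in limma), median centring (-0.149), 1 spread (-0.15) and slide as a fixed block (-0.177). The authors' table gave -0.361. Median centring moved the median of all probes to 0.172. The cause of these changes was not tested. With the replicate block, Nfatc4 differed by -0.351 (adjusted p = 0.00452) and 4258 probes passed, against 4869; of 27 pairs with the same number, 8 correlated above 0.1, and 1 of 19 arrays correlated best with its own number. The block ended the calls of the dimmer Rcan2 and Nfatc2 probes (adjusted p = 0.0752 and 0.055) and no other member's. Of all probes, 961 passed for AP5 with normexp on all spots and 11 with the slide block.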

Other observations

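The 5 member probes left out as dim (of Ppp3ca, Nfatc2 and Nfatc3) had corrected red signals of 54.7 to 91.4 on 18 arrays and 125.9 to 150.1 on vehicle array 5, the array with 1642 marked spots. Without that array the Nfatc4 difference between AP5 and vehicle was -0.346 (limma, adjusted p = 0.0044).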
